A study of Mus musculus with 2 samples.

Results

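The peaks described here lie deep inside genes and have modest scores. They come from 1 ChIP-seq library of mouse embryonic stem cells and were chosen by score and position: a score below 40, a midpoint inside a protein-coding gene on chromosomes 1 to 19, and a distance of over 10 kb to the ends of all protein-coding genes. The rule took 2990 of the 11545 autosomal peaks (25.9%, exact 95% interval 25.1 to 26.7%), out of 12181 peaks in the list. The cells were of the R1/E line, grown with serum and LIF, and carried a bacterial artificial chromosome that encodes a tagged TOBF1. Chromatin fixed with formaldehyde and DSG was pulled down with an antibody against GFP, and an input library of the same cells without antibody was also made. No values of the input were analysed here, and 1 antibody library gives no replicate, so no difference between conditions was tested.

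TOBF1 is the product of Bclaf3 and a relative of the nuclear protein Bclaf1. Mouse embryonic stem cells are held in their undifferentiated state by LIF signalling and by a network of transcription factors that includes Esrrb, Klf4, Nanog and Tfcp2l1. Sequence far inside a gene body is mostly intron, and introns can hold enhancers, alternative promoters and small RNA genes. Genes differ greatly in length, so a long gene collects more peaks than a short one at the same density.

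Each peak has a deposited score, read here as the peak caller's −log10 of a q-value. Peak sequences were not used here, but 26 members overlapped 28 annotated promoter windows, which run from 250 bases before to 50 bases after a RefSeq transcription start. Of these 26 peaks, 15 overlapped an internal start of the gene that held them, and 11 overlapped the start of a long non-coding RNA gene. All 28 windows give letters under a member peak, and 4 of them are shown as examples. They are taken from RefSeq on GRCm38.p6, read 5′ to 3′ on the strand of the start, with the bases inside the peak in capitals.
Il33, chr19:29945540-29945839, plus strand: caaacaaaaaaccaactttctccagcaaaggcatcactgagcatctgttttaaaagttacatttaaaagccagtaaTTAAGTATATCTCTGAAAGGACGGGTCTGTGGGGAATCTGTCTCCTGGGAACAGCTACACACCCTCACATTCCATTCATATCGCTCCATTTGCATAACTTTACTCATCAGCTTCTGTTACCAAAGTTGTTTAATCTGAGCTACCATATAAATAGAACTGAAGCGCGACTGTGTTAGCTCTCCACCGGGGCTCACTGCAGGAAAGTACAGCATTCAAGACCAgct
Lpar1, chr4:58499354-58499653, minus strand: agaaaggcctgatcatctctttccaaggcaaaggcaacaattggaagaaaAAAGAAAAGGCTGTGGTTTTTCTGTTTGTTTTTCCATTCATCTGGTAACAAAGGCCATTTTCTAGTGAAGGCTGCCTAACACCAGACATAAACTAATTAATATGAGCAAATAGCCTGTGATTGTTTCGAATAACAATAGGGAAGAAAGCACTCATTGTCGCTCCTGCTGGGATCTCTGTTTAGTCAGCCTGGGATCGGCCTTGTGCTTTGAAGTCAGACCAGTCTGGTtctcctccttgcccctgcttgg
Foxp1, chr6:99266466-99266765, minus strand: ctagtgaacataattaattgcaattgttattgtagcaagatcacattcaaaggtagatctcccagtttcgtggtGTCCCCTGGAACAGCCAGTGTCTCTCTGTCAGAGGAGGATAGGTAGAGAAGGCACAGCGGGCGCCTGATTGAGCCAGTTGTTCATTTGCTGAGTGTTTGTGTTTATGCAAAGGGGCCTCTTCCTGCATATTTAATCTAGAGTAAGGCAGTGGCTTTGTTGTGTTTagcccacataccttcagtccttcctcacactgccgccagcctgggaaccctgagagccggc
Gm35343, chr17:15053322-15053621, minus strand: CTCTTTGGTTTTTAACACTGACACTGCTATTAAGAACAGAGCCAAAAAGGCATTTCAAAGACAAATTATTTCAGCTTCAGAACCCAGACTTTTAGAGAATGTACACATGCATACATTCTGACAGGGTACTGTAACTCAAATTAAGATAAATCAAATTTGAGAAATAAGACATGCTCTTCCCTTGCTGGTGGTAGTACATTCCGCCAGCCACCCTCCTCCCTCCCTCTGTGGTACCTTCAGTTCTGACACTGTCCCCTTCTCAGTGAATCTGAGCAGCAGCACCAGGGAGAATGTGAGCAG

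Il33 encodes a cytokine released by damaged cells. Its window held a peak of score 6.35 and 221 bp, whose bases include the TATA box letters TATAAA and, on the other strand, the octamer ATGCAAAT. No other of the 28 windows held that octamer. Lpar1, a receptor for lysophosphatidic acid, had a peak of score 12.3 that lay wholly within the window and whose midpoint was 87 bp from the start. Foxp1, a forkhead transcription factor, had a peak of score 6.54 whose midpoint was 94 bp from an internal start. None of the motifs searched was found in that window. Gm35343 is a long non-coding RNA gene inside Ermard, and its whole window lay under a peak of 561 bp and score 7.59. Of the 28 windows, 17.9% held TATAAA, 21.4% CCAAT, 32.1% GGGCGG, 3.57% ATGCAAAT and 0% TCAAGGTCA, searched on both strands. Among all 32851 windows of the same length the shares were 13.6%, 37.4%, 35.7%, 1.74% and 0.423%. Their median GC content was 51.7% against 52.7% over all windows. With 28 windows, a single window moves a share by several percentage points. The windows are not all separate. Gm15886 and Bmpr1b each gave overlapping windows under the same peak, and those of Gm15886 all held GGGCGG.

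The members were narrow. Their score had a median of 9.51 with quartiles of 5.997 and 16.46, and their width a median of 206 bp. Scores from 5 to 10 were the most frequent class, with 1097 members, and 181 members had scores of 30 to 40. Width moved with score, from a median of 163 bp below a score of 5 to 300 bp at scores of 30 to 40. The 4387 peaks of score below 40 outside genes and over 10 kb from their ends had a median score of 9.64 and a median width of 207 bp. Both medians were thus almost the same inside and outside genes. At the score limit, the 3 members just below 40 lay in Lmx1b at 39.87, in Snd1 at 39.8 and in Pappa at 39.8. Peaks just above it lay in Itga9 at 40.09, Rnf111 at 40.1 and Alpl at 40.17. Of all 3280 deep intragenic peaks, 8.84% reached 40 (exact 95% interval 7.89 to 9.87%). Among peaks outside genes this share was 9.42%, and among peaks within 10 kb of a gene end it was 6.58% (5.77 to 7.46%).

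Sequence that met the position rule covered 702.2 Mb, or 28.8% of the autosomal span of 2442 Mb, and the members reached 4.26 per Mb of it. The share of autosomal peaks with scores below 40 that were members, 28.3%, lay close to that share of sequence. Members were sparser in the innermost sequence. Their density was 4.63 per Mb at 10 to 20 kb from the nearest gene end, 4.59 at 50 to 100 kb, 3.76 at 100 to 200 kb and 3.18 (exact 95% Poisson interval 2.83 to 3.57) beyond 200 kb. Chromosome 1 had the highest density, 5.504 per Mb (4.92 to 6.14) from 323 members. Intervals on counts cover counting error only, and because peaks group, they and the Poisson p-values below are too narrow.

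**Figure D1:**
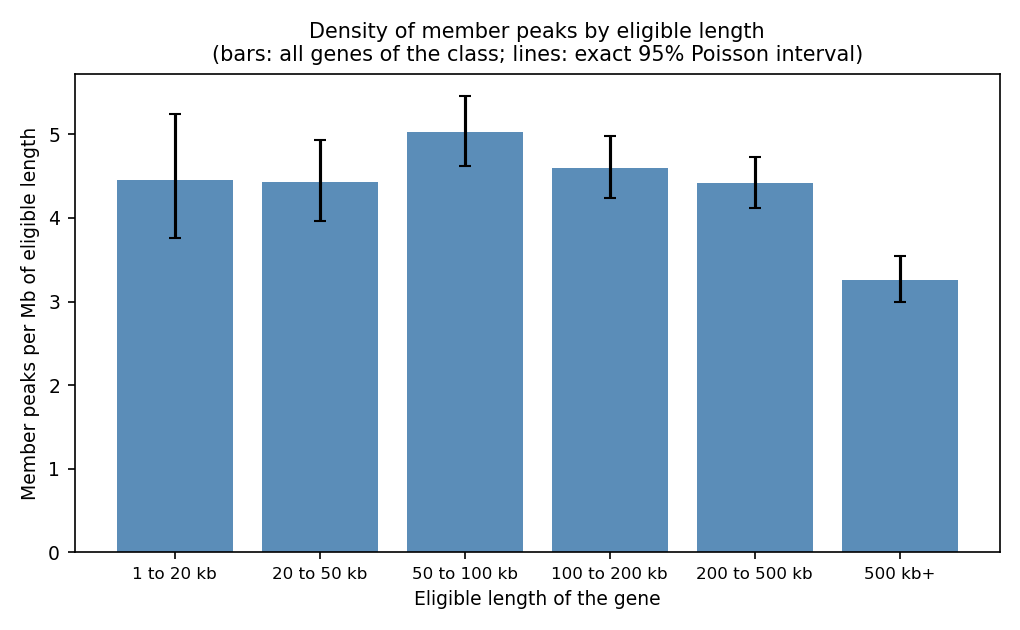
Members per Mb of eligible length (vertical axis) for genes in 6 classes of eligible length (horizontal axis); bars give all genes of a class and lines the exact 95% Poisson interval. The density was highest at 50 to 100 kb, 5.02 per Mb, and lowest at 500 kb or more, 3.26 per Mb.

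The eligible length of a gene is its sequence more than 10 kb from every protein-coding gene end, and a gene's expected count is this length times the autosomal density. Of 20665 autosomal protein-coding genes, 9162 had at least 1 kb of eligible length. A member lay in 1774 of them (19.4%), against 1890 predicted by length. Fewer genes than predicted held exactly 1 member, 1152 against 1299, and more held 5 or more, 89 against 67.4. The longest genes had fewer members than their length predicts: the 199 genes with 500 kb or more held 546 members, 0.765 times the expected number (0.702 to 0.832). Genes with 50 to 100 kb held 1.18 times the expected number.

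A set of 15 genes, or 0.164% of the 9162 tested, held more members than their length predicts at a Benjamini-Hochberg adjusted exact Poisson p below 0.05. This choice used the members' own counts, so it describes where members are crowded and supports nothing further. Together these genes held 94 members against 6.51 expected, 3.11% of all placements of members in genes. At an unadjusted p below 0.05 there were 301 genes. The number rests on counting neighbouring peaks singly: when members with gaps up to 10 kb were counted as 1 group, 0 genes passed and 210 had an unadjusted exact Poisson p below 0.05. It was 6 without peaks in dense runs (6 or more peaks of any score at gaps up to 10 kb), 6 with scores of 5 or more alone, 5 with a negative binomial fit, and 27 with a limit of 5 kb to the gene ends.

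**Figure D2:**
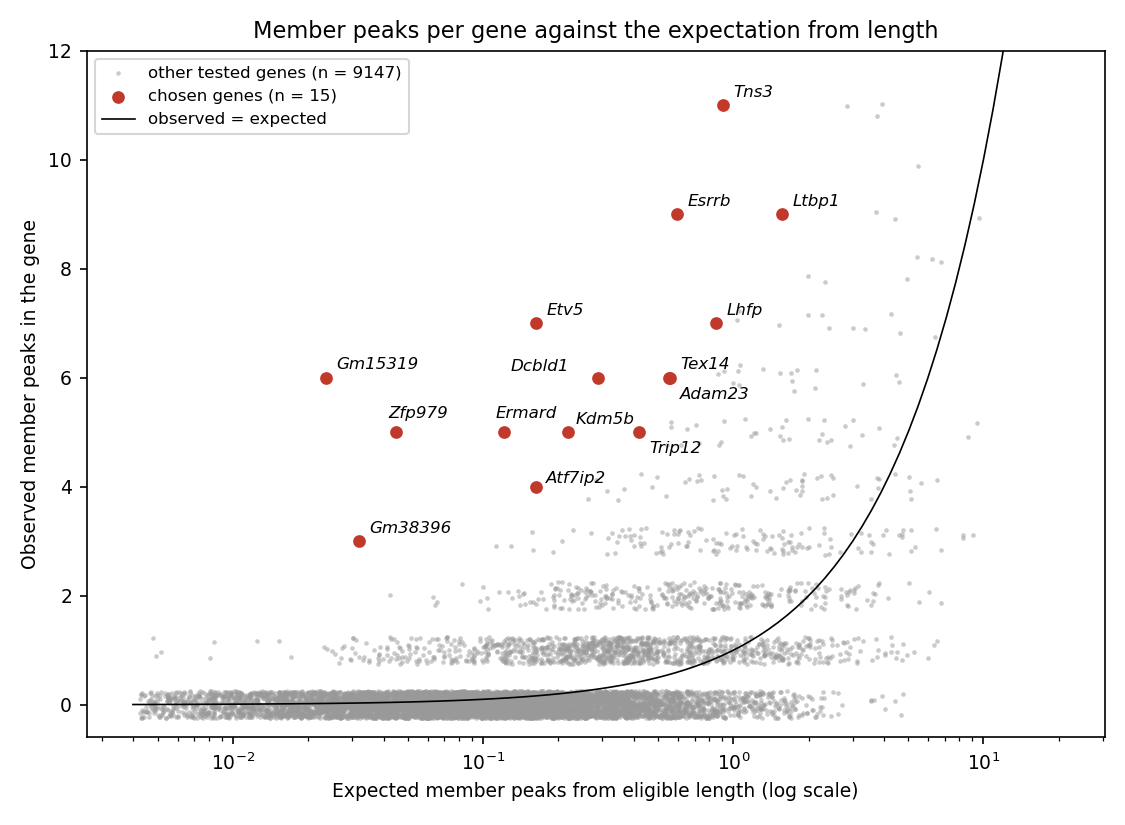
Member peaks observed in each of the 9162 tested genes (vertical axis; grey points are shifted slightly up or down so that they can be told apart) against the number expected from eligible length (horizontal axis, log scale). The 15 chosen genes, in red, lie above the line of equality, from Gm38396 with 3 members to Tns3 with 11.

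Esrrb and Etv5 are the chosen genes of the pluripotency network. Esrrb, on chr12:86361117-86521628, is an orphan nuclear receptor of the naive state. It held 9 members, with scores of 15.1, 18.4, 2.07, 7.81, 16.8, 4.09, 4.74, 5.85 and 2.76 in order along the gene, against 0.598 expected (15.0 times, adjusted exact Poisson p = 2.9e-05). The first 3 lay 105.2 to 118 kb from the gene's start, and the other 6 formed a group of 9.30 kb near its far end. Those 6 sat in a dense run, and without dense runs Esrrb had 3 members and was not chosen (5.11 times the expected number). It was chosen under 8 of the 13 alternative settings, and was also lost with scores of 5 or more (9.94 times, adjusted exact Poisson p = 0.125), at over 20 kb from gene ends (7.98 times, adjusted exact Poisson p = 0.242), with the negative binomial fit and with the grouping of neighbours.

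Etv5, on chr16:22381313-22439570, encodes an Ets transcription factor that acts downstream of FGF signalling. It held 7 members against 0.163 expected (43.0 times, adjusted exact Poisson p = 2.4e-06). Of these, 6 lay within 13.7 kb, with scores of 3.32, 5.72, 22.9, 20.04, 9.17 and 6.82, and the last stood apart at 2.53. The group of 6 was a dense run, and without it 1 member was left. Etv5 was chosen under 11 of the 13 settings, all but the removal of dense runs and the grouping of neighbours.

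Tns3, on chr11:8431652-8664758, held 11 members, the most of any tested gene together with Ptprg, Etl4 and Sntg1. It encodes a tensin, an adaptor that links integrins to the actin cytoskeleton. The expected number was 0.907 (12.1 times, adjusted exact Poisson p = 8.6e-06). Its members fell into 5 groups over 86.2 kb in the part of the gene nearer the start. Their scores ran from 5.06 to 38.3 with a median of 6.59. None lay in a dense run. Tns3 was chosen under 11 of the 13 alternative settings, the exceptions being the negative binomial fit and the grouping of neighbours, which left 6.33 times the expected number of groups.

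Kdm5b, Atf7ip2 and Trip12 act on chromatin or protein turnover. Kdm5b, a demethylase of lysine 4 of histone H3, lies on chr1:134560178-134632878 and held 5 members with scores of 4.83, 7.20, 1.40, 26.9 and 6 against 0.218 expected (23.0 times). A further peak of Kdm5b, of score 42.3 and 9.05 kb from a gene end, was outside the rule on both counts. Kdm5b passed under 10 of 13 settings, and was lost with scores of 5 or more (3 members, adjusted exact Poisson p = 0.303), with the negative binomial fit and with the grouping of neighbours. Atf7ip2, a relative of the SETDB1 partner Atf7ip, held 4 members against 0.162 expected, with scores of 23.3, 27.4, 3.57 and 24.7, a higher median (24.0) than any other chosen gene, and passed under 8 of 13 settings. Trip12, a ubiquitin ligase, held 5 members with scores from 3.11 to 8.90 against 0.420 expected. Its adjusted exact Poisson p was 0.047, the closest to the limit, and it passed under 4 of 13 alternative settings.

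Adam23, Dcbld1, Ltbp1 and Lhfp encode membrane or matrix proteins. Adam23, a member of the ADAM family without protease activity, held 6 members in 5 groups over 105.3 kb, and no group held more than 2. All 6 scores were low, from 2.42 to 6.41. With a score of at least 5 required, 1 of the 6 was left, and Adam23 passed under 7 of 13 settings. Dcbld1, a transmembrane protein, held 6 members with scores of 15.8, 29.3, 7.03, 11.5, 17.8 and 8.96, against 0.289 expected (20.8 times). None of the Dcbld1 members lay in a dense run. Dcbld1 passed under 10 of 13 settings, and was lost with scores below the median of the list (2 members, 13.3 times), with the negative binomial fit and with the grouping of neighbours. Ltbp1 binds latent TGF-beta in the matrix, and 7 of its 9 members lay within 10.1 kb. Lhfp, of a tetraspan membrane protein family, had 6 of its 7 members within 4.37 kb. Without dense runs, Ltbp1 had 1.31 and Lhfp 1.20 times the expected number. They passed under 9 and 8 of 13 settings.

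Tex14, which encodes a protein of the bridges between germ cells, held 6 members against 0.557 expected (10.8 times). Of the 6, 4 had a midpoint within 1 kb of an end of a small RNA gene listed as snRNA. From midpoint to nearer gene end it was 221 bp for Rnu1a1, 162 bp for Gm22068, 66 bp for Rnu3b1 and 169 bp for Rnu3b3. The scores were 17.9, 5.12, 12.6 and 3.34 in that order, and the peak at Rnu3b1 covered that whole gene. Small RNA genes of these families occur in many near-identical copies, and how reads that match several places were handled is not given in the sources used here. A member of Atf7ip2 lay 977 bp from Gm24667, also listed as snRNA. When members within 1 kb of the end of any non-coding gene were left out, an alternative chosen after seeing the data, 13 genes remained, and Tex14 (3.66 times) and Atf7ip2 (18.9 times) were the 2 lost.

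Gm15319, Zfp979, Ermard and Gm38396 are short, with 5.54 to 28.5 kb of eligible length. Gm15319, a predicted gene on chr8:20337664-20363202, held 6 members in 4.87 kb, with scores from 3.80 to 10.1, against 0.0236 expected. A further 54 peaks lay nearer its ends, inside it or within 10 kb of it, so that the members are the middle of a longer run. Zfp979, of the zinc finger family, held 5 members with scores from 2.28 to 7.36 and had 8 more peaks near its ends, of which 1 reached a score of 59.4. Ermard, on chr17:15041551-15090045, held 5 members within 2.32 kb, and the promoter window of Gm35343 shown above lies under the widest of them. All members of Gm15319, Zfp979 and Ermard lay in dense runs, so that 0 remained without them. Gm38396, a predicted gene, held 3 members within 1.63 kb, with scores of 6.63, 5.39 and 16.0, outside any dense run.

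**Figure D3:**
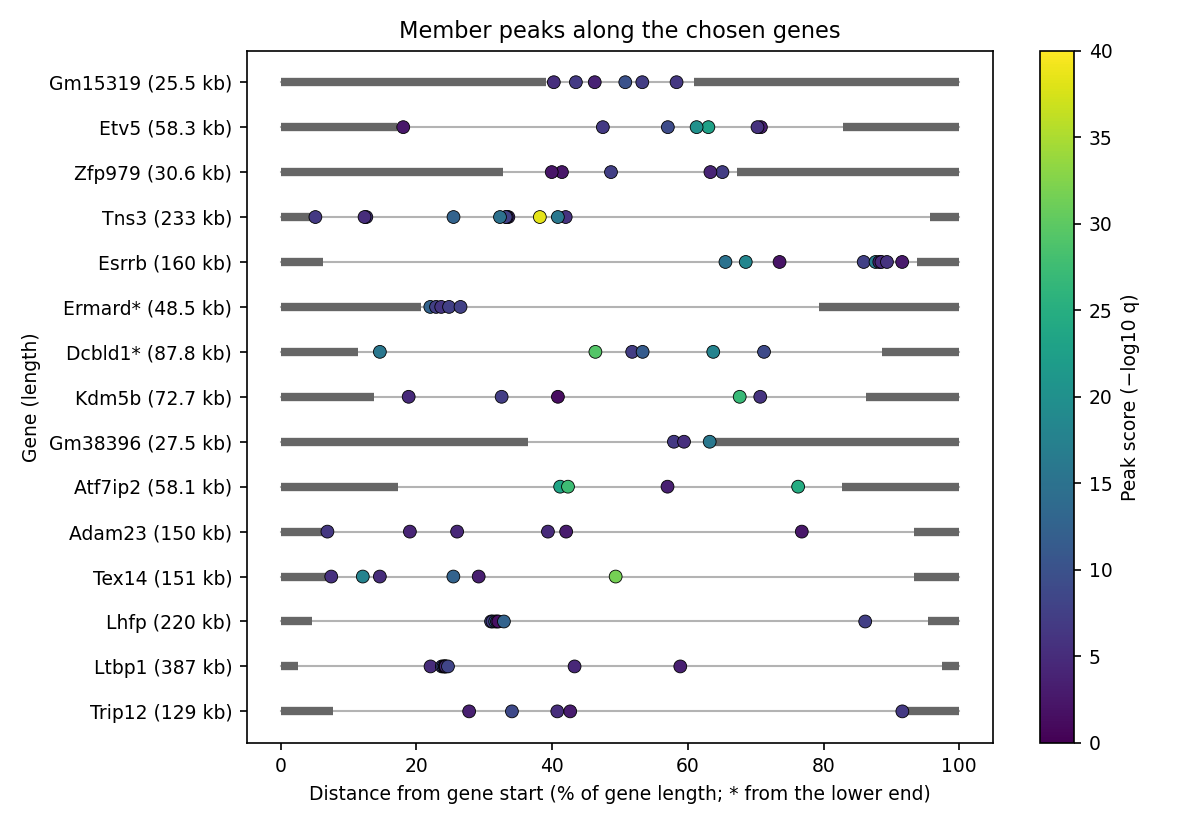
Position of each member along the 15 chosen genes, as a percentage of gene length from the gene's start (horizontal axis; for Ermard and Dcbld1, marked with a star, from the end with the lower coordinate), coloured by score. Thick bars mark the 10 kb at each of the gene's own ends. Sequence within 10 kb of another gene's end, also outside the rule, is not marked. Most points stand in tight groups, such as 6 within 4.37 kb in Lhfp, while those of Adam23 are spread out.

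Members in the chosen genes scored lower than the other members, although both the rule and the choice of genes rest on peaks of score below 40. Members in the chosen genes had a median score of 6.67, against 9.61 for the other 2896 members, and 72.3% of them scored below 10, against 51.9%. Across all members, the 2311 that stood alone, with no other at a gap up to 10 kb, had a median score of 9.77. The 209 in groups of 3 or more had a median of 7.49. Of these 209, 72 were members in chosen genes, so this contrast is not separate from the one above. Of the members in chosen genes, 76.6% were in groups of 3 or more, against 6.99% of all members, and 14 of the 15 genes held such a group. Choosing genes by their counts of members in a limited length itself favours such groups, so this share is no separate result. There were 10 groups of 5 or more members, and 8 of them lay in chosen genes. The other 2 lay in Sntg1, with 7 members in 12.5 kb and scores up to 38.6, and in Sntb1, with 6 in 6.12 kb. Both genes encode syntrophins. Grouping itself was no more frequent inside genes than outside: 22.5% of members had another member within 10 kb, and 26.1% of the peaks of score below 40 outside genes had another of their kind.

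Peaks that the rule did not use were looked up in the same genes. No chosen gene held a peak of score 40 or more in its eligible part, 0 of 15 (exact 95% interval up to 21.8%), against 271 of 9162 tested genes (2.96%) and 172 of the 1774 tested genes with a member (9.70%). These shares are not adjusted for length, and the interval includes both of the others. Median eligible length was 67.8 kb in the chosen genes, 30.4 kb in all tested genes and 109.4 kb in tested genes with a member. A peak within 10 kb of a gene end lay in or beside 10 of the 15 (66.7%, 38.4 to 88.2%), against 18.9% of all tested genes and 23.8% of tested genes with a member. Of the 87 such peaks, 54 belonged to Gm15319 and 15 to Adam23. Adam23 had the highest of them, a peak of score 119.2 whose midpoint lay 3.19 kb outside the gene. Within 1 kb of their own ends, 5 of the 15 genes had a peak, against 2.52% of all tested genes. In the 8 genes with members in dense runs, peaks near ends can belong to the same run as the members, and the part this plays was not tested.

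The next genes in rank lay just outside the limit. Ppp1r9a, an actin-binding protein of synapses, held 7 members against 1.03 expected (adjusted exact Poisson p = 0.0579). Sgms1, a sphingomyelin synthase, held 7 against 1.05 (adjusted exact Poisson p = 0.0613). Tet2, which oxidises methylated cytosine, held 4 against 0.262 (adjusted exact Poisson p = 0.0808). Ptprg, a receptor tyrosine phosphatase, held 11 against 2.85 (adjusted exact Poisson p = 0.0909).

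The genes of the pluripotency network were followed as a list. The list named 49 genes, of which 47 were autosomal and protein-coding and 16 had enough eligible length to be tested. Nanog and Klf4 were not among the 16. Of the 16, 11 held a member, where length predicts 3.63. Together the 16 held 32 members against 4.38 expected (7.31 times, 5.00 to 10.3). The median of the 16 stood at 3.35 times its expected count. Over all tested genes the median was 0, because most of them held no member. Over tested genes with a member, a set picked by its counts, it was 2.9. After Esrrb, Etv5 and Tet2 came Tfcp2l1, a factor of the naive state, with 3 members of scores from 5.86 to 13.2 against 0.159 expected (adjusted exact Poisson p = 0.155). Tet1 and Jarid2 held 2 members each, and Fbxo15, Mybl2, Ncoa3, Lin28b and Dnmt3a 1 each. Nr5a2, Prdm1, Stat3, Rif1 and Dnmt3b held 0 against expected counts of 0.0780 to 0.417. These last 12 genes are named to complete the tested part of the list, after their values were seen. Without Esrrb and Etv5, 9 of 14 genes held 16 members against 3.62 expected (4.43 times, 2.53 to 7.19). Counted as groups, all tested genes of the list had 16 against 3.81 expected (4.2 times, 2.40 to 6.82). This list was written with earlier results of these data known, so its count is a description.

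**Figure D4:**
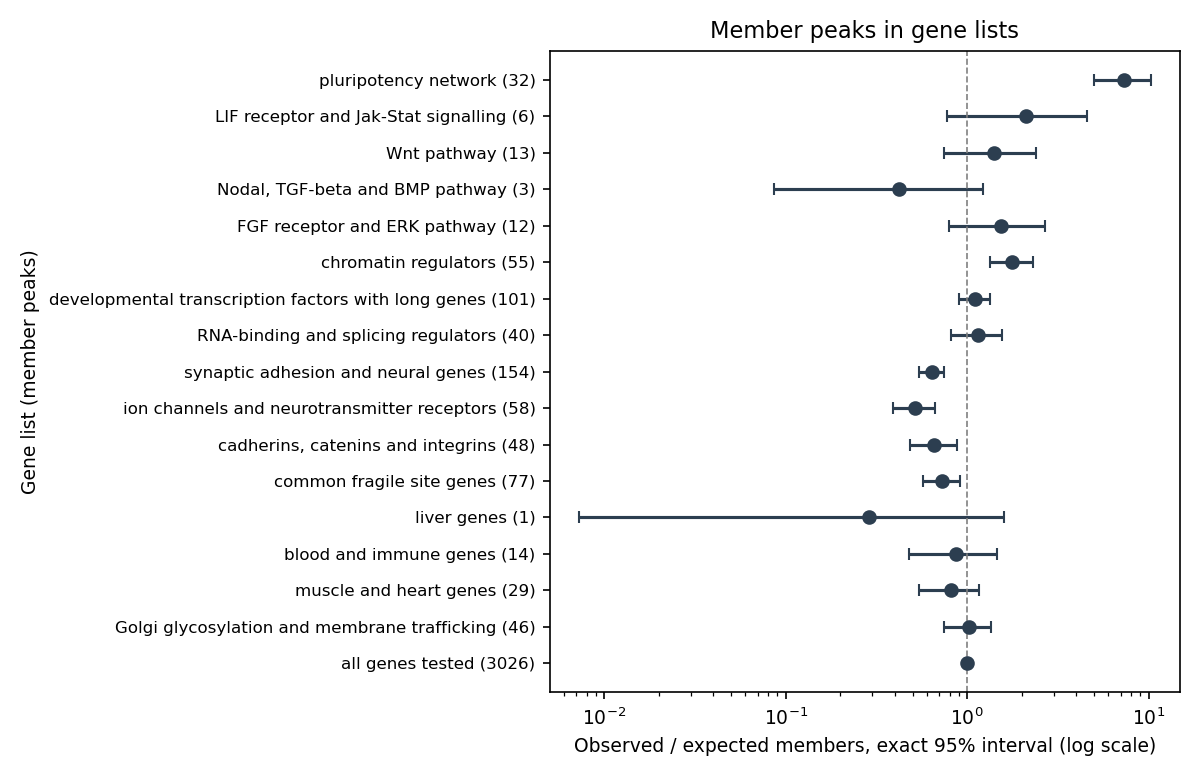
Observed over expected members (horizontal axis, log scale) for gene lists and all tested genes, with exact 95% Poisson intervals; the number of members is in brackets. The pluripotency network stands at 7.31 times and the ion channel list at 0.513 times the expected number.

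The 4 signalling lists had ratios from 0.420 to 2.11, and all their intervals included 1. The LIF receptor and Jak-Stat list had 6 members against 2.84 expected, of which Lifr, the LIF receptor, held 3 with scores of up to 37.5. In the Wnt list, 11 of 28 tested genes held 13 members against 9.24 expected, and Lgr4, a receptor for R-spondins, held 3 of them. The FGF receptor and ERK list had 12 members against 7.81, but 7 of them were those of Etv5, and without it the ratio was 0.654. Nodal, TGF-beta and BMP genes held 3 members against 7.14 expected, in Acvr2a, Zfyve9 and Bmpr1b (0.420 times, 0.0867 to 1.23).

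Chromatin regulators held 55 members in 30 of 82 tested genes, against 31.0 expected (1.78 times, 1.34 to 2.31). The ratio was 1.63 without Kdm5b and 1.67 for groups. Tet1, Tet2, Jarid2, Dnmt3a and Dnmt3b are also in the pluripotency list, and a ratio without these shared genes was not computed. Beside Kdm5b and Tet2, the list's highest counts were in Cdyl, a chromodomain corepressor, with 4 members against 0.827 expected, and in Hdac4, a histone deacetylase, with 4 against 1.05. Developmental transcription factors with long genes (1.10 times), RNA-binding and splicing regulators (1.15) and Golgi and trafficking genes (1.02) lay close to their expected numbers.

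Neural genes held fewer members than their length predicts. Synaptic adhesion and neural genes held 154 against 240.6 expected (0.640 times, 0.543 to 0.750), and ion channel and receptor genes held 58 against 113 (0.513 times, 0.390 to 0.664). The lower count was also seen in shorter genes. Those of either list below 500 kb of eligible length held 0.582 times the expected number (0.429 to 0.772, 65 genes), and those of 500 kb or more held 0.605 times (0.516 to 0.705, 63 genes). Genes of 500 kb or more in neither list held 0.863 times (0.778 to 0.954, 136 genes), and those below 500 kb in neither list 1.10 times (1.05 to 1.14, 8898 genes). Rims2, which primes synaptic vesicles, still held 8 members against 1.99 expected.

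The 5 genes with the largest expected counts and no member were Kcnip4 (4.75 expected), Galntl6 (4.67), Ctnna2 (4.42), Cadm2 (4.03) and Thsd7b (3.94). Kcnip4 encodes a potassium channel partner, Ctnna2 a neural catenin and Cadm2 a synaptic adhesion protein. Of the 107 genes expected to hold 3 or more members, 80 held fewer than expected and 8 held none. Cadherins, catenins and integrins held 0.660 times the expected number (0.487 to 0.875), and common fragile site genes 0.728 times (0.574 to 0.909). The fragile site genes have a median length of 1029 kb, and all genes with 500 kb or more of eligible length stood at 0.765 times. That class includes fragile site genes such as Fhit, so the values are not separate. Genes of 500 kb or more in neither the synaptic nor the ion channel list stood at 0.863 times. The part of length in the fragile site ratio was not tested. Liver genes (1 member against 3.50), blood and immune genes (14 against 16.1) and muscle and heart genes (29 against 35.6) had intervals that included 1. Of the muscle and heart genes' members, 11 were those of Sntg1, which was expected to hold 3.93, and 7 of the 11 lay in a dense run. The list's ratio therefore leans on this gene, and a ratio without it was not computed. Lists share genes, such as Etv5, Tet2 and Ctnna2, and their ratios are not independent.

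Along the gene, members were nearly even. In 7234 tested genes with a known strand, 4 equal stretches of the eligible length, in order from the start, held 26.9%, 24.6%, 24.4% and 24.1% of members. In the 13 chosen genes with a strand, 83 members split into 31.3%, 32.5%, 12.05% and 24.1%, with groups such as those of Ltbp1 and Esrrb counted peak by peak. Internal starts of protein-coding genes lay within 1 kb of 23 members (0.769%, 0.488 to 1.15%), and 0.369% of the eligible sequence lay as close to one. For ends of long non-coding RNA genes the values were 1.14% of members and 1.17% of eligible sequence. For miRNA genes they were 0.234% (7 members) and 0.0843%, and for genes listed as snRNA 0.234% (7 members, of which 4 in Tex14) and 0.0663%.

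The miRNA gene with more than 1 member nearby was Mir128-2, inside Arpp21, a gene for a phosphoprotein of neurons. The mature miRNA is shown, with its seed (bases 2 to 8) in capitals, because both peaks lie beside the hairpin on chr9:112118636-112118711, minus strand, in RefSeq on GRCm38.p6.
mmu-miR-128-3p: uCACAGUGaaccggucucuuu
The midpoints of the peaks lay 802 and 155 bp from the nearer end of the hairpin, and the peaks had scores of 6.54 and 5.86.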

How the data were processed

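Per the labels, 1 ChIP library and 1 input library were made; the submitters' processing notes name cutadapt, Bowtie2, MACS2 and bedtools on mm10, without versions or settings. Whether the input was the peak caller's control, how repeated reads were treated and how deep the sequencing was are not stated in the sources read, so the precision of a single score is unknown. The deposited score is read as −log10 of a q-value from its values, since no header names it. It was used only to filter and describe peaks within this list.

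Genes came from a RefSeq table of GRCm38.p6, which has the positions of mm10, and strands from its promoter table; exons were not used here. Expected counts were eligible length times 1 autosomal density, for genes with at least 1 kb of eligible length. The Poisson upper tail was adjusted by Benjamini-Hochberg over 9162 genes with a threshold of 0.05, and the code was tested on simulated data. Counts and p-values came from SciPy 1.17.1 and NumPy 2.4.6 under Python 3.11.15, tables from pandas 2.3.3, and plots from matplotlib 3.10.9. The members, the gene lists and the tests were chosen with earlier results of these data known. Named genes were all chosen genes, up to 4 per list with the most members, the 5 with the most members, the 5 with the largest expected count and no member, and 3 peaks on each side of the score limit; any others are marked or were the next in rank, chosen after their values were seen. Alternatives changed the score limits, the distance to gene ends, the count model, the least length and the treatment of neighbouring peaks. A gene list and some named genes are not reported here. Chromosomes X and Y and unplaced scaffolds were left out.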

Additional observations from a re-analysis of the deposited data

Results flagged for a closer look

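Chromosome X lies outside the rule and was in no comparison. It held 148 deep intragenic peaks with scores below 40, a signal in data that the report did not use. Values of the input library were not analysed here, so no control level stands beside it. Of the 148 peaks, 71 lay in Sh3kbp1 and 18 in Bclaf3, the gene that encodes TOBF1, and 59 lay in other genes. The cells carry a tagged TOBF1 on a bacterial artificial chromosome, and its part in these counts was not tested. Chromosome Y held 0.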

How the results depend on the processing

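The number of members moved from 2990 to 1555 when the score limit was the median of the list, and lay between 2313 and 3546 under the other limits tried. The number of chosen genes, 15, moved to 6 with scores of 5 or more, to 27 at over 5 kb from gene ends, to 5 with a negative binomial fit, to 0 with neighbours at gaps up to 10 kb counted as groups and to 6 without dense runs. It stayed between 10 and 17 under the other 8 settings. With dense runs left out, the ratio was 0 for Gm15319, for Zfp979 and for Ermard, because all their members lay in such runs. Over 20 kb from gene ends it was 0 for Ermard, which has no member there. The share of chosen genes with a peak near an end went from 66.7% to 80% at 20 kb, and the share of members with another within 10 kb from 22.5% to 15.8% with peaks merged at gaps up to 1 kb. Limits are the single library, unknown depth, the lack of a replicate and scores whose local background can differ. No paired analysis was possible because there is 1 antibody library and no replicate number.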
